A study of Mus musculus with 10 samples.

Results

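The genes described here are 57 listed protein-coding genes of mouse chromosome 16 that have their counterparts on human chromosome 21, the chromosome present in an additional copy in Down syndrome. They were chosen by name and position, with Dyrk1a itself left out. Of the 57, 56 had a transcript cluster of their own on the array, the unit of this platform that groups the probes of a transcribed locus, and these are compared with 19938 genes that had a single symbol in all. Btg3 was covered only by 2 transcript clusters that also name Gm7334, so it has no value of its own here. Both hippocampi of each mouse, taken whole, gave the RNA, from 5 Tg(Dyrk1a) mice and 5 wild-type (WT) littermates, all males of 16 weeks, with 1 array per mouse. Tg(Dyrk1a) mice carry an additional copy of Dyrk1a on a bacterial artificial chromosome. The labels give the background of both groups as C57BL/6N, whereas the methods of the study describe a backcross to C57BL/6J. Markers of hippocampal neurons lay between the 80th and the 99.9th percentile of array signal in the mean of the 10 arrays.

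In mice, a long block of chromosome 16 keeps the gene order of human chromosome 21, and lines that duplicate pieces of it are used as models of Down syndrome. In such a line every gene of the duplicated piece is present in excess at once, whereas a single-gene transgenic line changes the copy number of 1 gene. The genes of the block do unrelated work. Ets2, Erg, Runx1, Gabpa and Bach1 encode transcription factors, Hmgn1, Brwd1 and Chaf1b encode chromatin proteins, Sod1 and the carbonyl reductases Cbr1 and Cbr3 act in redox metabolism, and Ncam2, Dscam and Jam2 encode adhesion molecules. DYRK1A, the dual-specificity kinase whose gene lies in the same block, phosphorylates cytoplasmic and nuclear proteins, transcription factors and splicing factors among them, so the question asked of these arrays was whether an excess of this kinase gene alone moved the transcripts of its neighbours on the chromosome.

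None of the 56 genes passed the test for a change in the Tg(Dyrk1a) hippocampus. By limma with Benjamini-Hochberg adjustment over 23410 annotated transcript clusters, the smallest adjusted p among them was 0.947, and 0 of 56 passed 0.05, against 0.00854% of all transcript clusters (2 in number). At an unadjusted p under 0.05 there were 2 of 56, or 3.57%, against 4.93% of all transcript clusters. Both were higher in Tg(Dyrk1a). They were Hspa13, an HSP70-family protein of the endoplasmic reticulum, and Rwdd2b, which encodes a protein with an RWD domain. No gene of the list had groups that did not overlap, against 0.807% of all transcript clusters. By an exact permutation test (two-sided) of the 5 against 5 mice, whose smallest possible p is 0.00794, 3 of 56 (5.36%) had a p under 0.05, against 5.05% of all transcript clusters: Hspa13 with p = 0.0159, and Chodl and Adamts5 with p = 0.0397 each. Fold change rank ordering (FCROS), the method of the study, puts 2 of 56 (3.57%), Rwdd2b and Pigp, among the features whose rank statistic lay in the outer 0.025 at either end, against 4.83% of all transcript clusters. The shares of the listed genes are close to those of all transcript clusters under each of these rules.

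The data bound how far the array values of these genes could have moved. Of the 56 log2 fold changes (Tg(Dyrk1a) minus WT), 32 were above 0 and 24 below, with a median of 0.0058, and 54 of 56 were smaller than 0.1 in size. Their 95% limma intervals reached, in the median, 0.099 to either side of the estimate, and 54 of 56 intervals held 0. The highest upper limit was 0.29 on the log2 scale, or 1.23-fold, for Pigp, and the lowest lower limit was -0.21, or 0.864-fold, for Slc5a3. All 56 upper limits lay below 0.58, the log2 of the 1.5-fold that an added copy would give if transcript followed copy number. The upper limits of both Dyrk1a transcript clusters given next, 0.54 and 0.26, lay below it as well. A limit under 0.58 on these arrays thus does not by itself tell an added copy from none. The same arrays did register the added Dyrk1a. Its main transcript cluster (10437136; chr16:94569947-94695519, GRCm38.p6) stood at 11.65, 11.62, 11.67, 11.65 and 11.68 in the 5 Tg(Dyrk1a) mice, against 11.28, 11.15, 11.14, 11.19 and 11.15 in the 5 WT mice. The groups were apart, with a log2 fold change of 0.47 ± 0.03 (SE; 95% interval 0.40 to 0.54; limma adjusted p = 0.000138). All 56 upper limits of the listed genes lay below the lower limit of this transcript cluster. A second Dyrk1a transcript cluster (10437134) registered less. It had 9.08, 8.90, 8.95, 8.88 and 8.88 in Tg(Dyrk1a) mice, against 8.84, 8.87, 8.75, 8.73 and 8.72 in WT mice. Its groups were apart too, but its log2 fold change was 0.16 ± 0.05 (SE; 95% interval 0.05 to 0.26), or 1.11-fold, and did not pass adjustment (limma adjusted p = 0.947; exact permutation p = 0.00794). The upper limits of 48 of the 56 listed genes lay above the lower limit of this second transcript cluster, so the probes of Dyrk1a itself did not register the added copy equally.

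**Figure D1:**
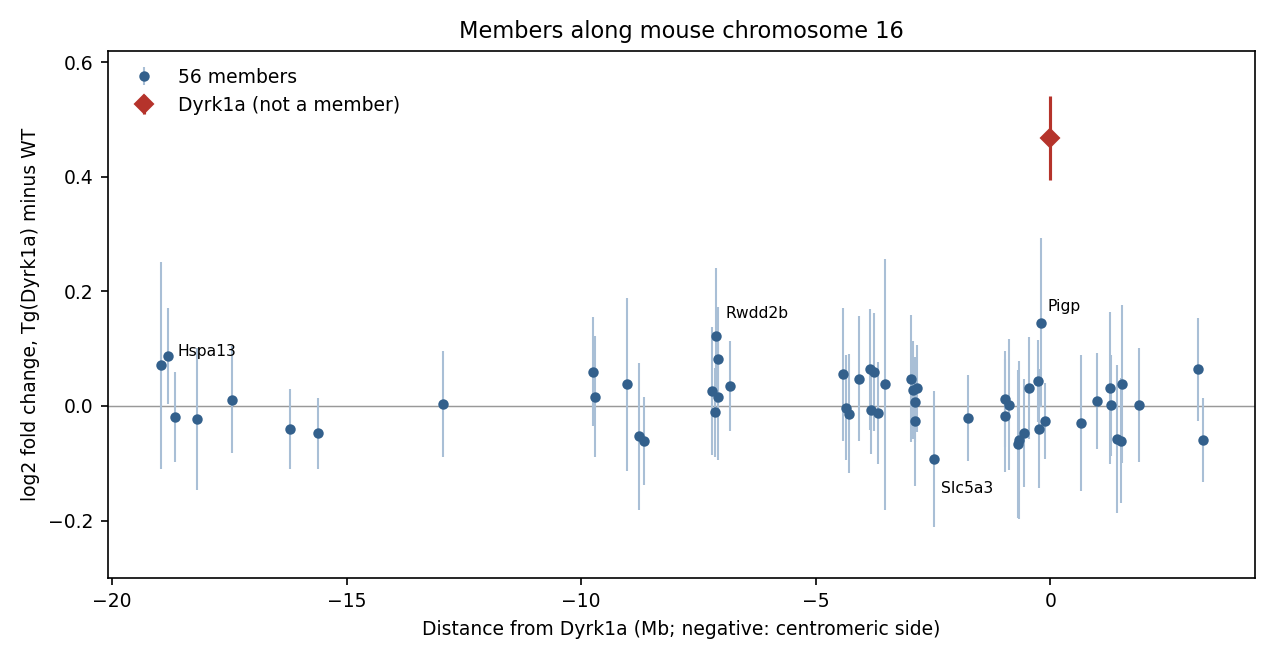
Log2 fold change (Tg(Dyrk1a) minus WT, vertical axis) of the 56 measured genes, with 95% limma intervals. The horizontal axis is the distance in Mb from the Dyrk1a gene of chromosome 16, negative on the centromeric side. The red diamond is the main transcript cluster of Dyrk1a at 0.47, and the listed genes lie between -0.09 (Slc5a3) and 0.15 (Pigp) along the whole block.

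Compared with other genes, the list does not stand out in its median or its quartiles. Its median of 0.0058 stands beside -0.0032 for 86 other genes of the same region from Lipi to Zbtb21, 0.0073 for 505 genes of chromosome 16 outside it, and 0.0020 for all 19938 genes. The quartiles of the listed genes were -0.03 and 0.04, and those of all genes -0.03 and 0.03. In the other genes of the region 5 of 86 (5.81%) had an unadjusted p under 0.05, and 0 passed adjustment. The listed genes were no more uniform from mouse to mouse than other genes either. Their median SD within groups was 0.0756, beside 0.0701 over all annotated transcript clusters, and 8 of 56 lay under the 30th percentile of signal, where small changes are harder to see. None of these 8 had an unadjusted p under 0.05.

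**Figure D2:**
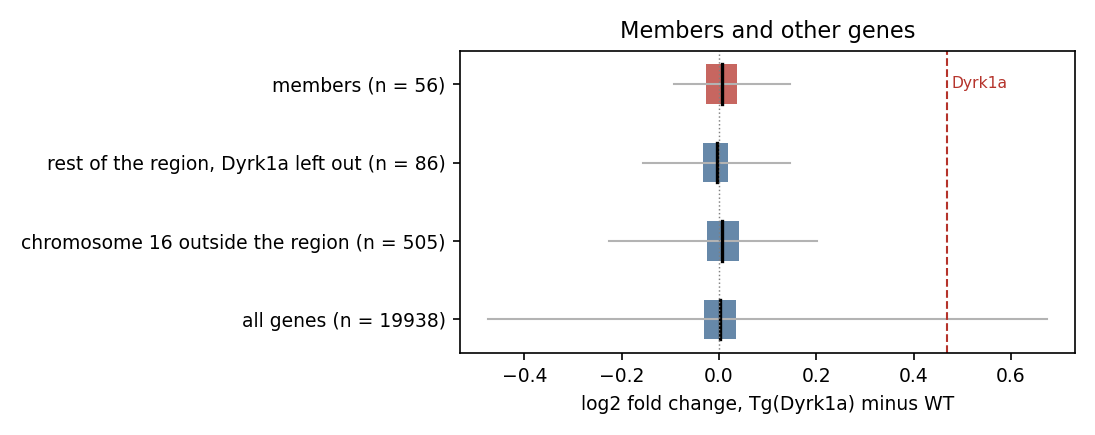
Log2 fold change (Tg(Dyrk1a) minus WT, horizontal axis) of the 56 listed genes, the 86 other genes of the region, 505 genes of chromosome 16 outside it, and all 19938 genes, which include the others. Boxes span the quartiles, black lines are medians and grey lines reach the lowest and highest gene, and the dashed line is the main transcript cluster of Dyrk1a. The medians lie between -0.0032 and 0.0073.

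The listed genes nearest to the Dyrk1a gene of chromosome 16 are described next. The methods of the study do not say where the bacterial artificial chromosome inserted. Distances here are therefore from the chromosome 16 gene, which both groups carry, and the distance from the added copy is not known. On the centromeric side these were Ttc3, a ubiquitin ligase gene 101 kb away, Pigp, which encodes a subunit of the enzyme that starts glycosylphosphatidylinositol (GPI) anchor synthesis, 199 kb away, and Ripply3, a transcriptional corepressor gene 233 kb away. On the telomeric side these were the ETS-family transcription factor genes Erg, 664 kb away, and Ets2, 1007 kb away, and the proteasome assembly chaperone gene Psmg1, 1284 kb away. Ttc3 and Pigp are read in opposite directions from neighbouring starts, and their shared start region is shown because it is the closest promoter among the listed genes to the Dyrk1a locus. It is the RefSeq window of Ttc3, chr16:94370489-94370788 (GRCm38.p6, plus strand). The capitals mark the 30 bases from one annotated start of Pigp, which runs to the left from 94370710, to the start of Ttc3, which runs to the right from 94370739.
Ttc3: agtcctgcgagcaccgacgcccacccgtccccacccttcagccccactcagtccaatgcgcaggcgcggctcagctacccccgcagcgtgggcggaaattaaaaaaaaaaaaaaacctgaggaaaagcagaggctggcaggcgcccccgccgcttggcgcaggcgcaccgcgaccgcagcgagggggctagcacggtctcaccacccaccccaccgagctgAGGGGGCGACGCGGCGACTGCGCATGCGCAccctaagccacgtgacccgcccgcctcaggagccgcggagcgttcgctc

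Ttc3, one of the genes with the highest array signal, was the steadiest of these neighbours. It had 11.40, 11.36, 11.45, 11.34 and 11.41 in Tg(Dyrk1a) mice, against 11.42, 11.45, 11.39, 11.42 and 11.40 in WT mice. The groups overlapped over most of their range, and the log2 fold change was -0.03 ± 0.03 (SE; 95% interval -0.09 to 0.04; limma adjusted p = 0.967).

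Pigp, on the other side of the same start region, had the highest fold change of the list by the transcript cluster with the stronger signal (10545528), but not by the other. That transcript cluster had 8.96, 9.13, 9.06, 9.02 and 9.06 in Tg(Dyrk1a) mice, against 8.62, 8.93, 8.92, 8.97 and 9.07 in WT mice. WT mouse 1 lay lowest and WT mouse 5 within the Tg(Dyrk1a) values. The log2 fold change was 0.15 ± 0.07 (SE; 95% interval -0.0018 to 0.29; limma p = 0.0524, adjusted p = 0.947; exact permutation p = 0.0873), and without WT mouse 1 it was 0.08. The other transcript cluster (10441055) had 8.15, 8.04, 8.03, 7.95 and 8.07 in Tg(Dyrk1a) mice, against 8.02, 8.03, 7.95, 8.07 and 8.04 in WT mice, a log2 fold change of 0.02 ± 0.04 (SE; 95% interval -0.06 to 0.11; limma adjusted p = 0.976). Of the 10 annotated transcript clusters nearest by number to 10545528, 9 name genes of chromosome 6, whereas all 10 nearest to 10441055 name genes of chromosome 16. Where the probes of 10545528 lie in the genome was not tested, so whether its value comes from the Pigp gene of chromosome 16 is uncertain.

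The remaining neighbours gave no call. Ripply3 averaged 5.50 ± 0.09 in Tg(Dyrk1a) and 5.54 ± 0.07 in WT mice (SD, n = 5 each), with a log2 fold change of -0.04 ± 0.05 (SE). Erg, which marks endothelial cells in adult tissue, averaged 6.77 ± 0.09 in Tg(Dyrk1a) and 6.80 ± 0.10 in WT mice (SD, n = 5 each), a difference of -0.03 ± 0.05 (SE). Ets2 averaged 9.89 ± 0.05 in Tg(Dyrk1a) and 9.88 ± 0.06 in WT mice (SD, n = 5 each), a difference of 0.01 ± 0.04 (SE). Psmg1 averaged 7.75 ± 0.14 in Tg(Dyrk1a) and 7.72 ± 0.06 in WT mice (SD, n = 5 each), a difference of 0.03 ± 0.06 (SE). None of these 4 differences exceeded its standard error. Over the 12 listed genes within 1000 kb of Dyrk1a, 5 were above 0 and 7 below, with a median of -0.02. None of the 12 had an unadjusted p under 0.05. The 44 farther genes had a median of 0.0097. Of these, 2 (4.55%) had an unadjusted p under 0.05, beside 4.93% of all transcript clusters. Counts this small do not set near genes apart from far ones.

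The 2 nearest genes on either side of Dyrk1a are not on the list and were looked at after their values were seen. Vps26c, a gene of the retriever complex for recycling membrane proteins, lies 43.3 kb away. It had 9.03, 8.92, 8.89, 8.84 and 8.87 in Tg(Dyrk1a) mice, against 8.75, 8.82, 8.76, 8.88 and 8.80 in WT mice. The groups overlapped only through Tg(Dyrk1a) mice 4 and 5 and WT mouse 4, and the log2 fold change was 0.11 ± 0.04 (SE; limma p = 0.0180, adjusted p = 0.947; exact permutation p = 0.0238). Kcnj6, an inwardly rectifying potassium channel gene on the other side, gave a log2 fold change of 0.03 ± 0.04 (SE; exact permutation p = 0.508).

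The 2 listed genes with an unadjusted p under 0.05 lie far from Dyrk1a. Hspa13 (chr16:75755190-75767276) had 8.85, 8.87, 8.84, 8.83 and 8.90 in Tg(Dyrk1a) mice, against 8.80, 8.77, 8.64, 8.81 and 8.83 in WT mice. The Tg(Dyrk1a) values lay close together, the highest WT value just passed the lowest of them, and WT mouse 3 lay apart below. The log2 fold change was 0.09 ± 0.04 (SE; limma p = 0.0421, adjusted p = 0.947; exact permutation p = 0.0159), or 1.06-fold, and without WT mouse 3 it was 0.05. Rwdd2b (chr16:87433331-87440592) had 7.54, 7.50, 7.49, 7.44 and 7.72 in Tg(Dyrk1a) mice, against 7.34, 7.55, 7.38, 7.38 and 7.43 in WT mice. All 5 Tg(Dyrk1a) values were above the WT mean, but WT mouse 2 exceeded 4 of them and Tg(Dyrk1a) mouse 5 stood highest. The log2 fold change was 0.12 ± 0.05 (SE; limma p = 0.0423, adjusted p = 0.947; exact permutation p = 0.0635), or 1.09-fold, and without Tg(Dyrk1a) mouse 5 it was 0.08. Leaving out either of these mice, Tg(Dyrk1a) 5 or WT 3, left 0 of 56 genes at an unadjusted p under 0.05, against 4.07% and 3.73% of all transcript clusters in the same fits. Leaving out Tg(Dyrk1a) mouse 4 gave 4 of 56 (7.14%), against 5.87% of all.

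**Figure D3:**
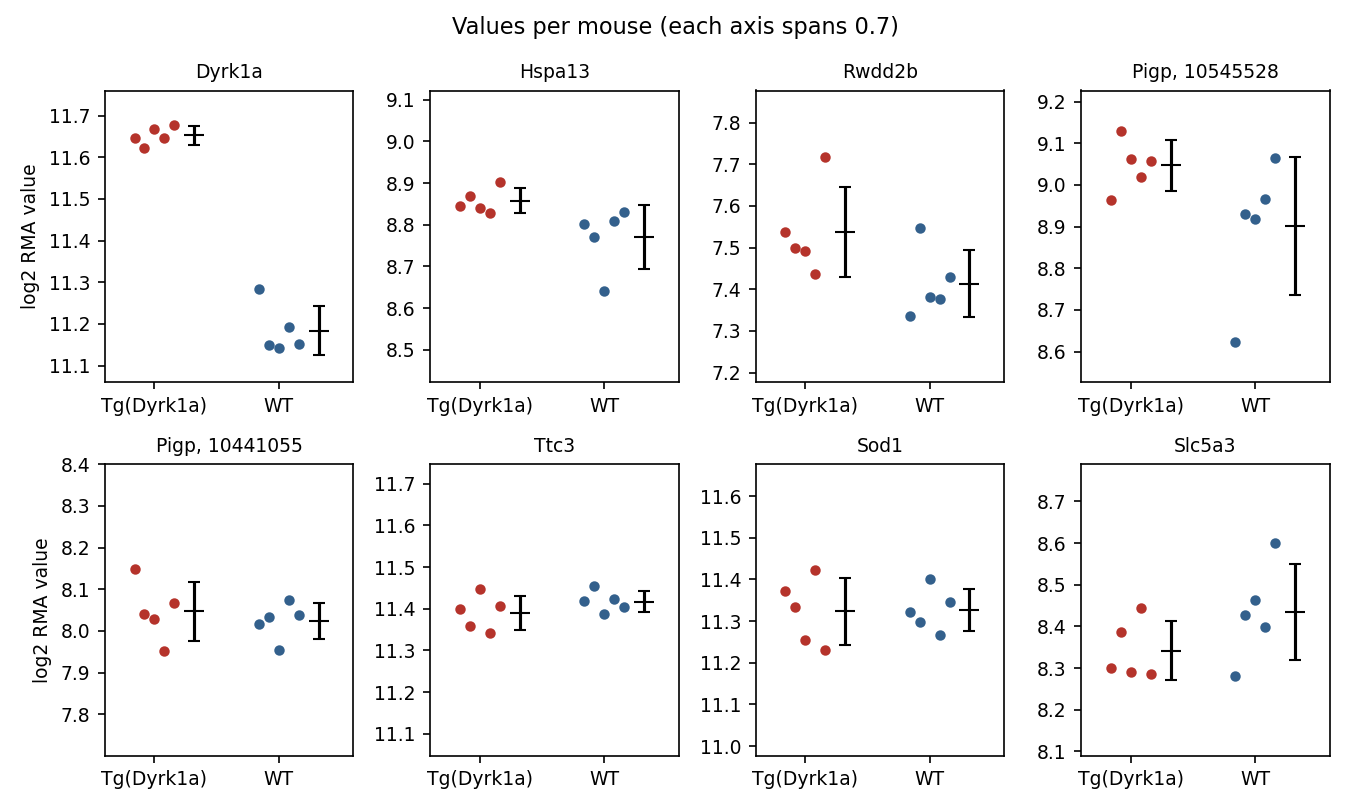
Log2 RMA value of each mouse (vertical axis, spanning 0.7 in every panel) in 5 Tg(Dyrk1a) mice (red, left) and 5 WT mice (blue, right) for Dyrk1a, both transcript clusters of Pigp and 5 listed genes, with black marks for mean and SD. Dyrk1a is the panel in which the groups are apart, 11.65 ± 0.02 in Tg(Dyrk1a) and 11.18 ± 0.06 in WT mice.

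By role, 18 measured genes of transcription and chromatin split evenly, 9 above 0 and 9 below, with a median log2 fold change of -0.0081 and none at an unadjusted p under 0.05. The highest was Usp16, which removes ubiquitin from histone H2A, with 7.98, 8.10, 7.93, 8.13 and 7.99 in Tg(Dyrk1a) mice, against 7.92, 8.00, 7.92, 7.91 and 7.96 in WT mice. Its groups overlapped, and the log2 fold change was 0.08 ± 0.04 (SE; limma adjusted p = 0.947), which became 0.02 without the 3 arrays of high choroid plexus score (Tg(Dyrk1a) mice 2 and 4 and WT mouse 5). The lowest of this group was Morc3, an ATPase of nuclear bodies, at -0.07 ± 0.06 (SE), followed by Chaf1b, a subunit of chromatin assembly factor 1, at -0.06 ± 0.06 (SE) and Zbtb21, a zinc finger gene, at -0.06 ± 0.03 (SE). Morc3 rests largely on a single mouse, since it was -0.02 without Tg(Dyrk1a) mouse 1. Chaf1b moved both ways, to -0.11 without the same mouse and to -0.03 without Tg(Dyrk1a) mouse 5. Zbtb21 had 8.17, 8.13, 8.18, 8.16 and 8.23 in Tg(Dyrk1a) mice, against 8.29, 8.15, 8.24, 8.26 and 8.23 in WT mice. All 5 Tg(Dyrk1a) values lay under the WT mean, and the groups overlapped only through WT mouse 2 and Tg(Dyrk1a) mouse 5 (exact permutation p = 0.0952). Gabpa, the DNA-binding subunit of an ETS-family factor that acts on mitochondrial protein genes, averaged 7.82 ± 0.09 in Tg(Dyrk1a) and 7.80 ± 0.08 in WT mice (SD, n = 5 each). Runx1, a factor of blood cell development, averaged 6.50 ± 0.03 in Tg(Dyrk1a) and 6.52 ± 0.06 in WT mice (SD, n = 5 each). Neither difference, 0.02 for Gabpa and -0.02 for Runx1, exceeded its standard error.

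Paxbp1, which encodes a PAX-binding protein, had the widest spread within groups of the list, with an SD of 0.194. It had 7.81, 7.96, 7.90, 8.38 and 7.85 in Tg(Dyrk1a) mice, against 7.98, 7.81, 8.01, 7.78 and 8.13 in WT mice. Tg(Dyrk1a) mouse 4 stood far above the other mice, and the log2 fold change of 0.04 ± 0.10 (SE) became -0.06 without it and -0.0024 without WT mouse 4.

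Genes of protein folding and ubiquitin were 7, of which 5 were above 0, with a median of 0.02, and 2 of the 7 had an unadjusted p under 0.05, Hspa13 and Rwdd2b, where 4.93% of all transcript clusters did. A group of 7 genes is too small to read a share from. Ltn1, the ubiquitin ligase of ribosome-associated quality control, was measured by 16 transcript clusters whose log2 fold changes ran from -0.04 to 0.07. Its transcript cluster with the strongest signal averaged 10.48 ± 0.05 in Tg(Dyrk1a) and 10.49 ± 0.05 in WT mice (SD, n = 5 each), a log2 fold change of -0.01 ± 0.04 (SE). Of 4 RNA-processing genes 3 were above 0, the highest being Rbm11, a neuronal splicing regulator gene, at 0.07 ± 0.08 (SE). Rbm11 had 7.45, 7.47, 7.52, 7.18 and 7.60 in Tg(Dyrk1a) mice, against 7.37, 7.40, 7.11, 7.49 and 7.50 in WT mice. One mouse of each group, Tg(Dyrk1a) 4 and WT 3, lay well below the rest. Its log2 fold change was 0.0058 without WT mouse 3 and 0.14 without Tg(Dyrk1a) mouse 4.

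Of 9 genes of metabolism and redox 7 were above 0, with a median of 0.03 and none at an unadjusted p under 0.05. Sod1, cytosolic superoxide dismutase, had 11.37, 11.33, 11.26, 11.42 and 11.23 in Tg(Dyrk1a) mice, against 11.32, 11.30, 11.40, 11.27 and 11.35 in WT mice. The groups covered the same range, and the log2 fold change was -0.0028 ± 0.04 (SE; 95% interval -0.09 to 0.09). The neighbouring paralogues Cbr1 and Cbr3, which reduce carbonyl compounds, were likewise level. Cbr1 averaged 9.53 ± 0.07 in Tg(Dyrk1a) and 9.52 ± 0.05 in WT mice, and Cbr3 averaged 6.95 ± 0.09 in both Tg(Dyrk1a) and WT mice (SD, n = 5 each), with differences of 0.01 ± 0.04 and 0.0022 ± 0.05 (SE). Slc5a3, the sodium-coupled transporter of the osmolyte myo-inositol, had the lowest fold change of the list. It had 8.30, 8.39, 8.29, 8.44 and 8.28 in Tg(Dyrk1a) mice, against 8.28, 8.43, 8.46, 8.40 and 8.60 in WT mice. The groups overlapped, with WT mouse 5 highest and WT mouse 1 lowest, and the log2 fold change was -0.09 ± 0.05 (SE; limma adjusted p = 0.947), which became -0.05 without WT mouse 5.

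Of 10 genes of adhesion and matrix 4 were above 0 and 6 below, with a median of -0.03 and none at an unadjusted limma p under 0.05. The highest was Jam2, a junctional adhesion molecule gene of endothelium and other barriers, which averaged 10.03 ± 0.07 in Tg(Dyrk1a) and 9.97 ± 0.07 in WT mice (SD, n = 5 each), a difference of 0.06 ± 0.04 (SE). The lowest was Adamts5, an aggrecan-cleaving protease gene, with 5.29, 5.31, 5.29, 5.32 and 5.25 in Tg(Dyrk1a) mice, against 5.47, 5.35, 5.34, 5.32 and 5.30 in WT mice. WT mouse 1 stood above the others, and the log2 fold change of -0.06 ± 0.04 (SE) became -0.03 without it. Chodl, which encodes the lectin-like membrane protein chondrolectin, had the lowest array signal of the list, with 4.82, 4.83, 4.90, 4.87 and 4.87 in Tg(Dyrk1a) mice, against 4.90, 4.89, 4.90, 4.94 and 4.90 in WT mice. All 5 Tg(Dyrk1a) values of both genes lay under the WT mean, and the log2 fold change of Chodl was -0.05 ± 0.03 (SE). Both signals are dim, at the 19.9th percentile of all transcript clusters for Adamts5 and the 11.9th for Chodl. Cyyr1, a cysteine- and tyrosine-rich membrane protein gene, averaged 8.18 ± 0.05 in Tg(Dyrk1a) and 8.15 ± 0.17 in WT mice (SD, n = 5 each), with WT mouse 3 at 7.88 below the rest.

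The last 8 genes, of signalling and other roles, were 4 above 0 and 4 below, with a median of 0.02 and none at an unadjusted p under 0.05. The highest, named after its values were seen, was C2cd2, which encodes a C2-domain lipid-binding protein. It had 7.68, 7.79, 7.64, 7.75 and 7.64 in Tg(Dyrk1a) mice, against 7.67, 7.58, 7.62, 7.58 and 7.73 in WT mice. All 5 Tg(Dyrk1a) values were above the WT mean, the groups overlapped through WT mice 1 and 5, and the log2 fold change was 0.06 ± 0.04 (SE). Tmem50b, a membrane protein gene of the endoplasmic reticulum and Golgi and the brightest signal of the list, averaged 11.67 ± 0.10 in Tg(Dyrk1a) and 11.63 ± 0.08 in WT mice (SD, n = 5 each). The lowest was Sh3bgr, which encodes a glutamate-rich protein that binds SH3 domains, with a log2 fold change of -0.06 ± 0.05 (SE), which became -0.03 without Tg(Dyrk1a) mouse 2. Over the whole list, 4 genes had all 5 Tg(Dyrk1a) values above the WT mean and 3 genes had all 5 below it. The share over all transcript clusters was not taken for this rule, so these counts cannot be read against a background.

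The pieces of the block that the study's duplication lines carry gave the same picture in these single-gene transgenic mice. Of 9 measured genes from Hspa13 to App 5 were above 0, with a median log2 fold change of 0.0039, and 1 had an unadjusted p under 0.05. Of 24 genes from Cyyr1 to Clic6 15 were above 0, with a median of 0.03, and 1 had an unadjusted p under 0.05. Of 18 genes from Cbr1 to Fam3b, the piece around Dyrk1a, 10 were above 0, with a median of 0.0015, and none had an unadjusted p under 0.05. Beside 4.93% of all transcript clusters, counts this small do not set one piece apart from another. The other 5 genes, Rbm11, Runx1, Setd4, C2cd2 and Zbtb21, lie between or beyond these pieces.

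**Figure D4:**
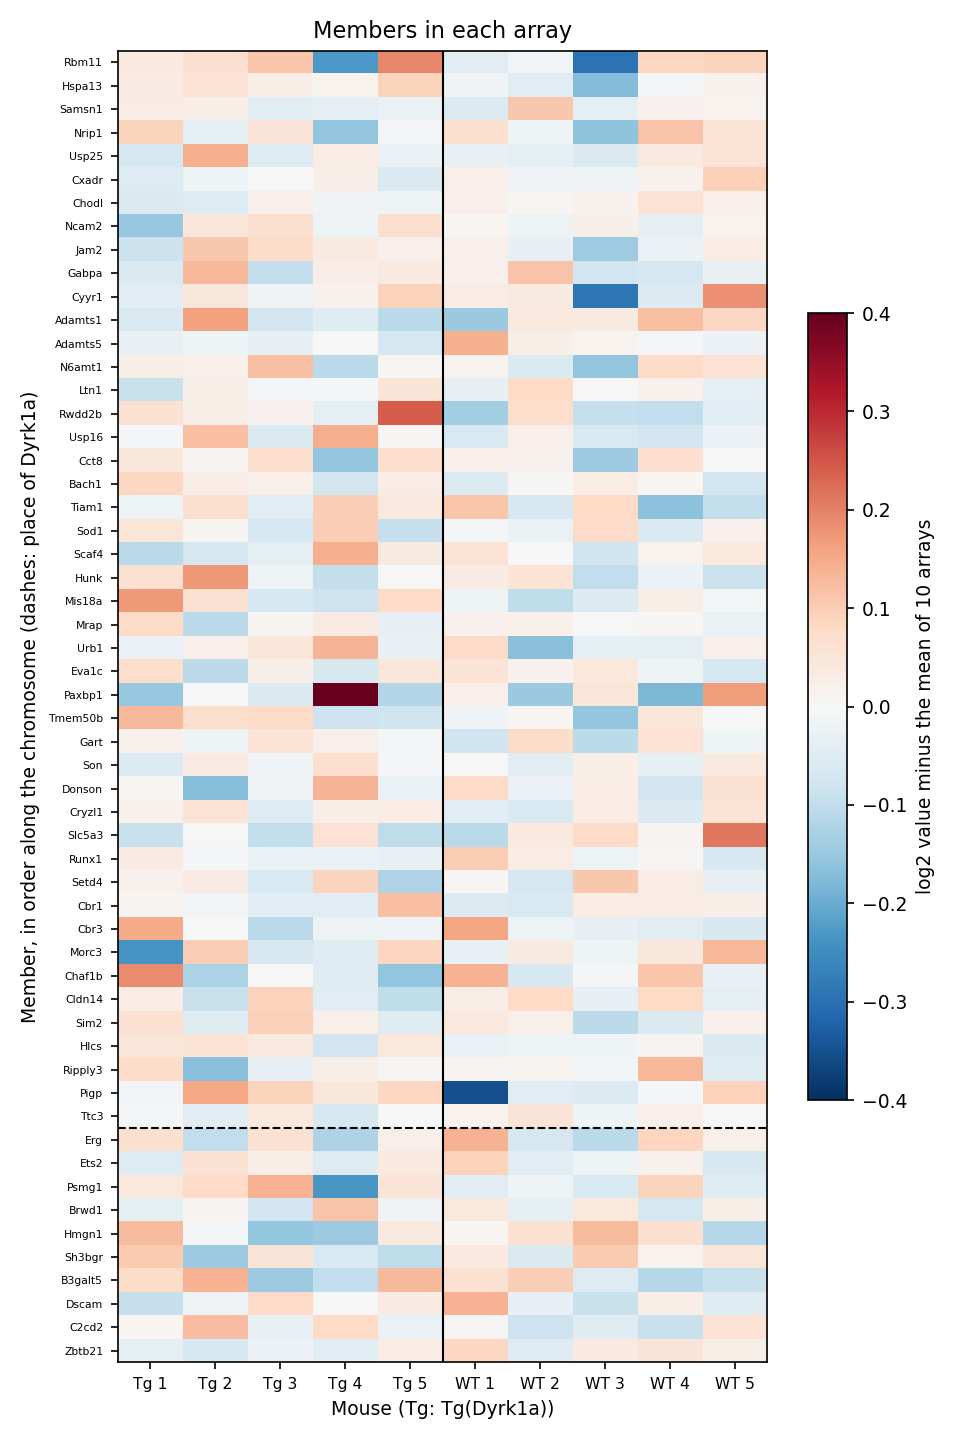
Log2 value of each of the 56 genes (rows, in order along the chromosome) in each of the 10 mice (columns, 5 Tg(Dyrk1a) left of 5 WT), minus the gene's mean over the 10 arrays. The dashed line is the place of Dyrk1a. Single cells stand out, such as Paxbp1 in Tg(Dyrk1a) mouse 4 at 8.38 and Pigp in WT mouse 1 at 8.62, while no block of neighbouring genes separates the groups.

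Some markers of tissue next to the hippocampus moved with mice or groups. A choroid plexus score, the mean deviation of 13 measured marker genes of 15 listed, ran from -0.69 to 1.15 in Tg(Dyrk1a) and from -0.56 to 1.08 in WT mice, and was over 0.5 in Tg(Dyrk1a) mice 2 and 4 and WT mouse 5. In these 3 arrays C2cd2 and Son were higher than in the other 7 and Eva1c lower, without overlap. These are 3 of 56 (5.36%), against 5.22% of all transcript clusters. Paxbp1 was higher by 0.28 on average. Without these 3 arrays 2 of 56 genes (3.57%) had an unadjusted p under 0.05, Rbm11 and Rwdd2b, against 5.43% of all transcript clusters. Some small values moved there. Rbm11 was then 0.18, Usp16 0.02, Psmg1 0.09 and Sh3bgr -0.0072 on the log2 scale. Psmg1 was likewise 0.09 with only Tg(Dyrk1a) mouse 4, one of these 3 arrays, left out. A thalamus score over 5 markers was 0.57 in WT mouse 5, the mouse that stood highest for Slc5a3, and between -0.13 and 0.01 in the other 9 mice, and 0 of its 5 markers had a log2 fold change above 0. The endothelium and mural cell score ran from 0.02 to 0.10 in Tg(Dyrk1a) and from -0.18 to 0.02 in WT mice, with 8 of 10 markers above 0 and 4 at an unadjusted p under 0.05. The meninges score ran from -0.10 to 0.35 in Tg(Dyrk1a) and from -0.27 to 0.06 in WT mice, with 7 of 7 markers above 0 and 3 at an unadjusted p under 0.05. The part of these tissues and cell types in the values of Jam2, Cyyr1 and the other listed genes was not tested, and in whole tissue a change in cell number and a change in RNA per cell cannot be told apart.

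Promoter windows from RefSeq (250 bases before to 50 after an annotated start, GRCm38.p6) were found for 48 of the 57 genes, 63 windows in all. DYRK1A protein has been reported at promoters that hold a palindromic motif. The letters CTCGCGAG, the core of that motif, which reads the same on both strands, were in none of the 48 genes' windows, and in 1.04% of 27025 genes. The letters CCGGAAG, a common core of the sites of ETS-family factors such as Gabpa, Ets2 and Erg, were in the windows of 12 of 48 genes (25%) on either strand, against 9.93% of all genes. They were Btg3, Cct8, Chaf1b, Donson, Dscam, Gabpa, Gart, Hlcs, Psmg1, Setd4, Urb1 and Usp16. This search was chosen after the values were seen. The 27025 genes were not matched to the list in base content or kind of gene, and an excess was not tested. Of the 11 with a value, 8 were above 0 and 3 below, with a median log2 fold change of 0.02 and none at an unadjusted p under 0.05. Beside these, the 36 measured genes with a window lacking these letters had a median of 0.0031. The lowest of the 11 was Chaf1b and the highest Usp16. Their windows are shown with that of Gabpa, an ETS-family gene that holds the letters in its own promoter, with the matched letters in capitals (CTTCCGG on the other strand). They are chr16:84834874-84835173 for Gabpa, chr16:87454735-87455034 for Usp16 and chr16:93883651-93883950 for Chaf1b, all on the plus strand.
Gabpa: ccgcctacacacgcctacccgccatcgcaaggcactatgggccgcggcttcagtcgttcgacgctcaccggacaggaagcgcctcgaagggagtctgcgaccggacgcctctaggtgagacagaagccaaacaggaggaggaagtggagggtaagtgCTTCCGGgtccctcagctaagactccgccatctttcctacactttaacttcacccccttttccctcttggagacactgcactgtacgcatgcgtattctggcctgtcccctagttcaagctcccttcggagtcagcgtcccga
Usp16: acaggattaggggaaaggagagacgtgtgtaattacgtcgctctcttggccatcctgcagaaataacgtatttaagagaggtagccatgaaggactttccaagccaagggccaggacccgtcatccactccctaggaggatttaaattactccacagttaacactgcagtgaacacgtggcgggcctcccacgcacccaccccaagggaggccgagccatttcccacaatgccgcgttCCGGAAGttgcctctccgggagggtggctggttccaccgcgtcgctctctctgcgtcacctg
Chaf1b: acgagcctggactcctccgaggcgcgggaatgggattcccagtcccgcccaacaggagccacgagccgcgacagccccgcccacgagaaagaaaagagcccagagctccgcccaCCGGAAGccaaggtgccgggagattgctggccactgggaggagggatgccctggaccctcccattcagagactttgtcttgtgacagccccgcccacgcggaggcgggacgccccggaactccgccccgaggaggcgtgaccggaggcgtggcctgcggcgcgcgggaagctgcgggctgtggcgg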

How the data were processed

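Hippocampal RNA was measured on Affymetrix Mouse Gene 1.0 ST arrays. The values deposited by the authors are on the log2 scale. They were made with RMA (robust multi-array average), in which background is removed, probes are normalised across arrays, and each transcript cluster gets 1 summary value. RMA, limma and mm10 are named in the submitters' processing notes. Columns that hold no sample of the labels numbered 0. Of 35556 rows, 23410 were annotated with a gene by the platform table, 21789 of them with 1 symbol, 1621 with several, and 12146 had none. A gene's value is that of its transcript cluster with the highest mean over the 10 arrays, and signals of different transcript clusters were not set against each other as expression levels. Positions come from RefSeq on GRCm38.p6.

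Tg(Dyrk1a) and WT arrays were compared on the deposited log2 values by lmFit and eBayes (limma 3.58.1, R 4.3.3) without a covariate, and p-values were adjusted by Benjamini-Hochberg over all 23410 annotated rows. Single genes also had a two-sided exact permutation test over 252 assignments. FCROS was rewritten from its description, over 25 pairs of arrays with 25% of ranks trimmed at each end. The scripts were tested on simulated data. Array medians lay between 6.57 and 6.66 and correlations between arrays between 0.9965 and 0.9991; no 2 arrays were copies. The number of mice, 5 per group, limits the precision. The labels call these biological replicates.

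The genes, the lists and the rule for named genes were chosen with earlier results of these data known. Named are genes with an unadjusted p under 0.05 or groups apart, the 5 highest and 5 lowest fold changes, the 3 nearest to Dyrk1a on either side, the ends of the study's duplications and genes it names (Btg3, Gabpa, Jam2, Ltn1, Runx1 and Sod1), the 3 brightest and 3 dimmest, the 3 with the widest spread, genes whose promoter holds the DYRK1A motif, and Cbr1 with Cbr3. The alternatives were other normalisations, filters, variance models, array weights, a block for the replicate number, averaging a gene's transcript clusters, the choroid plexus score as covariate or its 3 high arrays left out, FCROS without trimming, and each mouse left out in turn.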

Additional observations from a re-analysis of the deposited data

Results flagged for a closer look

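Of 54 sets of 5 mice (27 genes in each group), 4 held 1 mouse that lay far from the other 4 by Dixon's test of the gap over the whole range, where chance gives about 2.7 for genes picked without regard to their values. The 27 genes were picked partly by fold change and spread in these same values, so that figure is no fair measure for them. Psmg1 was 7.50 in Tg(Dyrk1a) mouse 4 and 7.77 to 7.87 in the other 4. Paxbp1 was 8.38 in the same mouse and 7.81 to 7.96 in the other 4 Tg(Dyrk1a) mice. Adamts5 was 5.47 in WT mouse 1 and 5.30 to 5.35 in the other 4. Cbr3 was 7.11 in the same WT mouse and 6.89 to 6.93 in the other 4. The cause was not tested.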

How the results depend on the processing

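No listed gene passed an adjusted p of 0.05 under any of 20 alternatives, and the median log2 fold change moved by less than its spread over WT arrays, 0.0181, staying between -0.0029 and 0.015. The count at an unadjusted p under 0.05, 2 in the reported fit, was 1 with median centring, 1 with all rows tested, 4 with array weights and 4 with the choroid plexus score as covariate, where 4.82%, 4.37%, 6.52% and 5.71% of all transcript clusters in those fits were called, and ran from 0 (without Tg(Dyrk1a) mouse 5 or WT mouse 3) to 4 (without Tg(Dyrk1a) mouse 4) with a mouse left out. The FCROS count was 2 of 56 in the reported run, where 4.83% of all transcript clusters were called. It ran from 0 to 3 with a mouse left out. The share over all transcript clusters was not taken in those runs, so these counts cannot be read against a background. In the reported run the count was 1 with the other Pigp transcript cluster, an alternative chosen after seeing the data. With the replicate number as a block, 3 of 56 genes (5.36%) had an unadjusted p under 0.05, against 5.10% of all transcript clusters in that fit, and 0 passed adjustment. Equal numbers do not pair the mice, since the correlation of their deviations was over 0.1 in 1 of 5 pairs and ran from -0.29 to 0.28.

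Of 27 named genes 10 changed sign under some alternative, with values of at most 0.063 in size. The log2 fold change became -0.0082 for Ets2, -0.0047 for Cbr1 and -0.0011 for Gabpa with quantile normalisation, -0.0023 for Cbr3 with median centring, -0.0039 for Gabpa and -0.0095 for Cbr3 with array weights, and 0.014 for Ltn1 as the mean of its transcript clusters. Without the 3 arrays of high choroid plexus score it was 0.035 for Erg, -0.0062 for Ets2, -0.036 for Gabpa, -0.044 for Paxbp1 and -0.0058 for Cbr3. With a mouse left out, it ran from -0.060 to 0.0019 for Erg, -0.0064 to 0.032 for Ets2, -0.029 to 0.089 for Cyyr1, -0.016 to 0.025 for Cbr1, -0.028 to 0.020 for Sod1, -0.025 to 0.010 for Ltn1, -0.014 to 0.047 for Gabpa, -0.040 to 0.0019 for Runx1, -0.063 to 0.084 for Paxbp1 and -0.034 to 0.042 for Cbr3. The cause was not tested.

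With 5 mice per group, the unadjusted 95% limma intervals reached about 0.1 on the log2 scale to either side in the median. Changes smaller than that could not be told from none for most genes. A change of 0.16 with groups apart, in the second Dyrk1a transcript cluster, still did not pass adjustment (limma adjusted p = 0.947). Under all 20 alternatives the highest upper 95% limit of any listed gene was 0.36 (Rbm11).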
